A study of Caenorhabditis elegans with 20 samples.

Results

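Among the genes with the highest neuronal values in the data are 7 that the tables list by a sequence name: Y44A6D.2, H05L03.3, C07A12.2, C39B10.5, F45E4.3, C06C3.3 and T03G11.3. They were selected on their measured values, a high level in neuronal ribosome-bound RNA over whole-animal RNA, out of 18917 genes listed in the series. The neuronal values below are therefore a description without a test, and tests are given for the other purifications.

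The libraries came from the nematode Caenorhabditis elegans and from TRAP (translating ribosome affinity purification). The method isolates tagged ribosomes of chosen cells from lysed animals and sequences the messenger RNA on them. Strain JAC126 was purified for neurons, JAC379 for dopamine neurons, JAC433 for serotonin neurons, JAC127 for muscle and JAC382 for intestine. Each strain gave 2 TRAP libraries and 2 input libraries of whole-animal polyadenylated RNA, 20 in all. All animals were synchronized L4 larvae, grown at 22 °C on plates with OP50-1 bacteria and were harvested between 46 and 48 h after release as L1. The labels name neither the promoter that drives the ribosome tag nor whether a strain is 1 line, and they do not say that replicates were separate cultures. p-values therefore measure the spread between these libraries, pooled in part or in whole over genes, and that spread may be technical.

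"Little-studied" holds only by the names in the tables. In the RefSeq gene table (assembly WBcel235) all 7 are protein-coding and 5 have a symbol by now. H05L03.3 is nlp-49, a gene for neuropeptide-like proteins, which are cut into short signalling peptides and released from dense-core vesicles. F45E4.3 is cla-1, which encodes Clarinet, a protein of the presynaptic active zone, the patch of membrane where synaptic vesicles fuse. Y44A6D.2 is tpan-1, C07A12.2 is nssp-77 and T03G11.3 is zchc-1A, while C39B10.5 and C06C3.3 have only their sequence names. No role is given here for these 5.

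Neurons of the worm are small, so a transcript used only there is diluted in whole-animal RNA and gains when neuronal ribosomes are pulled out. A purification for 1 transmitter class instead takes ribosomes from a handful of neurons, while its input holds RNA of all cells. Fewer cells of a type and less RNA per cell cannot be told apart in such bulk samples.

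Levels are the authors' deposited RPKM, a read count scaled by gene length and library size. A replicate's table leaves out every gene that is under 1 RPKM in both its libraries. A gene low in input is therefore listed only where its TRAP value is high. The 7 genes were all listed in both replicates of the neuronal and dopamine purifications, 6 in serotonin, 4 in intestine and 3 in muscle.

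Reads per library, recovered from the deposited counts, ranged from 4.46 to 239.7 M (mega), lowest in neuronal input replicate 1. The neuronal label held for the pan-neuronal markers: 16 of 20 passed the test as higher in neuronal TRAP than in input, and their summed level was 6749 to 6826 RPKM in the TRAP libraries against 670 to 771 RPKM in input. The dopamine transporter gene dat-1 had 41.0 and 5.43 RPKM in dopamine TRAP, against 1.76 and 0.985 RPKM in input, while bas-1, an amine synthesis gene, had 11.4 and 11.2 RPKM in dopamine TRAP, against 23.3 and 37.0 RPKM in input. The serotonin synthesis gene tph-1 had 67.2 and 7.58 RPKM in serotonin TRAP, against 3.47 and 0.528 RPKM in input, whereas the serotonin transporter gene mod-5 and bas-1 passed in neither fit there, at log2 changes of 0.72 and -0.21. Dopamine TRAP replicate 2 stood apart. The muscle myosin gene unc-54 had 33081 RPKM there and 418 RPKM in dopamine TRAP replicate 1, against 146 and 23.3 RPKM in their inputs, so dopamine results are also given without that library. In serotonin TRAP unc-54 had 1952 and 1756 RPKM, against 65.0 and 33.8 RPKM in input.

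H05L03.3 (nlp-49) had 8244 and 1757 RPKM in neuronal TRAP, against 85.0 and 10.0002 RPKM in neuronal input. Both TRAP libraries lay far above both inputs, which rested on 236 and 196 reads. Replicate 1 exceeded replicate 2 in both fractions. The neuropeptide processing genes also differed between the neuronal TRAP replicates: egl-3, a proprotein convertase, had 1414 and 84.7 RPKM, and its chaperone sbt-1 had 5712 and 1081 RPKM. The synaptic gene rab-3, by contrast, had 688 and 723 RPKM there. Their part in the level of H05L03.3 was not tested.

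In the dopamine purification H05L03.3 had 135 and 28.2 RPKM in the TRAP libraries, against 261 and 97.4 RPKM in input. In serotonin it had 53.7 and 66.1 RPKM in the TRAP libraries, against 396 and 130 RPKM in input. In intestine it had 57.9 and 33.5 RPKM in the TRAP libraries, against 89.4 and 137 RPKM in input. TRAP was below input in all 6 of these replicate pairs, and the groups overlapped only in dopamine. Muscle went the other way, with 11.4 and 30.1 RPKM in the TRAP libraries against 9.30 and 16.3 RPKM in input, and there the groups overlapped too.

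**Figure D1:**
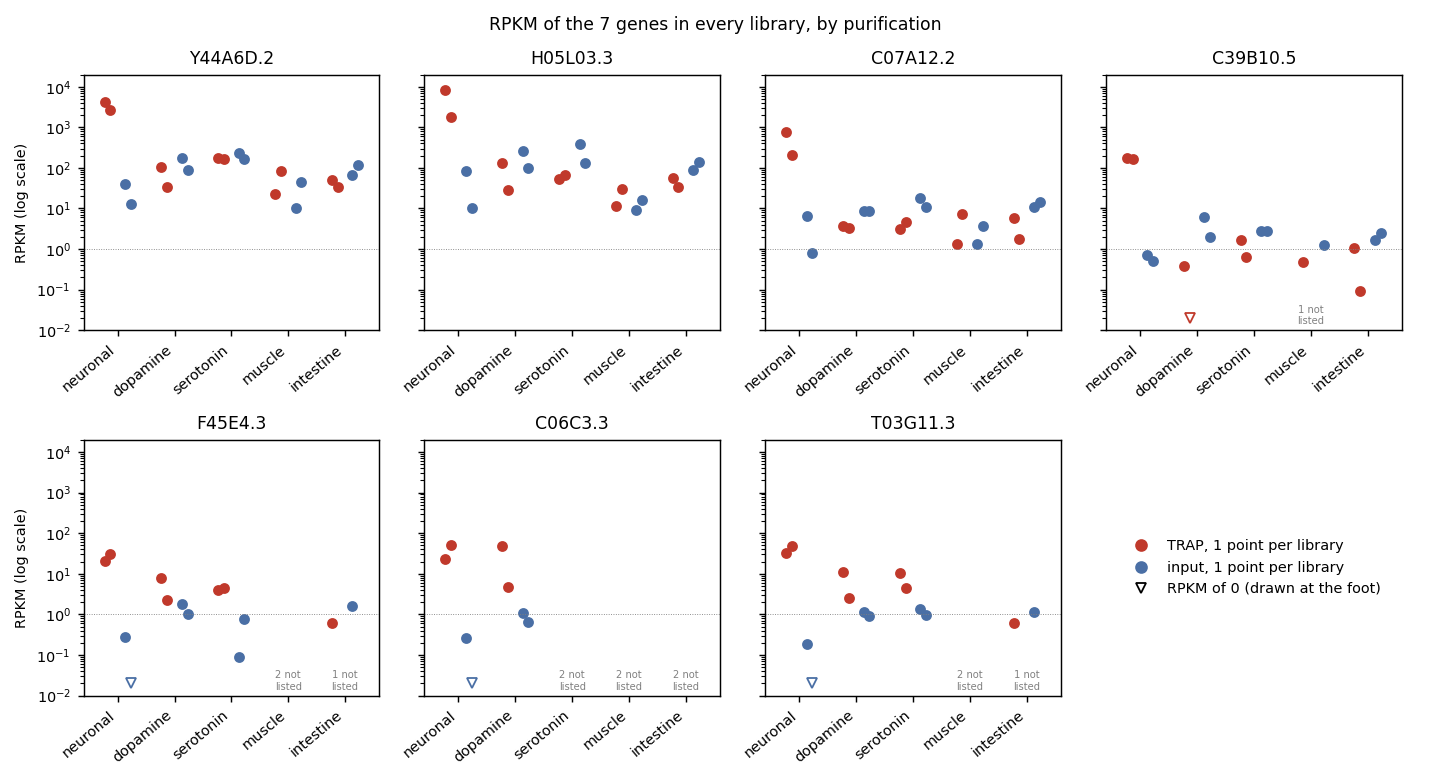
RPKM (log axis) of each gene in every library, by purification, with TRAP in red left of input in blue, 1 point per library. Neuronal TRAP lies far above input for all 7 genes. In dopamine and serotonin, TRAP lies above input for F45E4.3 and T03G11.3 and, in dopamine, for C06C3.3, while for H05L03.3, C07A12.2 and C39B10.5 each TRAP library lies below the input of its own replicate; open triangles mark an RPKM of 0.

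F45E4.3 (cla-1) was a weaker transcript, at 21.1 and 31.4 RPKM in neuronal TRAP, against 0.273 and 0 RPKM in neuronal input. The inputs held 5 reads and 0 reads. In replicate 1 the ratio was 77.4, with a 95% exact counting interval of 33.1 to 238. In replicate 2, against a floor of 3 reads per library, TRAP was at least 1353-fold higher. Such intervals and floors cover counting error only.

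In dopamine F45E4.3 had 7.66 and 2.28 RPKM in the TRAP libraries, against 1.77 and 1.00 RPKM in input. In serotonin it had 3.95 and 4.40 RPKM in the TRAP libraries, against 0.0891 and 0.768 RPKM in input. TRAP was the higher fraction in all 4 replicate pairs and the groups did not overlap in either purification. In serotonin the gene passed the listing rule through TRAP alone, which fixes that direction. In intestine it was listed in replicate 1 only, at 0.622 RPKM in the TRAP library against 1.58 RPKM in input, and in muscle it was not listed. The intestine listing came through input alone, which fixes TRAP as the lower fraction there.

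T03G11.3 (zchc-1A) behaved much like F45E4.3 across the libraries. It had 33.4 and 48.0 RPKM in neuronal TRAP, against 0.182 and 0 RPKM in neuronal input, where 1 read and 0 reads were recovered. The ratio in replicate 1 was 184 with a counting interval of 32.95 to 7256, and in replicate 2 TRAP was at least 623-fold higher. In dopamine it had 11.2 and 2.55 RPKM in the TRAP libraries, against 1.16 and 0.904 RPKM in input. In serotonin it had 10.2 and 4.48 RPKM in the TRAP libraries, against 1.37 and 0.987 RPKM in input. Neither purification showed an overlap. In replicate 2 of both, T03G11.3 passed the listing rule through TRAP alone. Intestine listed it in replicate 1 only, at 0.603 RPKM in the TRAP library against 1.12 RPKM in input, and muscle not at all. This intestine listing also came through input alone, so TRAP had to be the lower fraction.

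C06C3.3 was the only one of the 7 that the authors' deposited tables of enriched genes name for another purification besides the neuronal one. It had 23.6 and 50.8 RPKM in neuronal TRAP, against 0.260 and 0 RPKM in neuronal input, where 2 reads and 0 reads were recovered. The replicate 1 ratio was 90.6 with a counting interval of 25.1 to 748, and in replicate 2 TRAP was at least 920-fold higher. In dopamine it had 49.4 and 4.84 RPKM in the TRAP libraries, against 1.06 and 0.652 RPKM in input. The dopamine TRAP value of replicate 1 thus lay inside the range of the neuronal TRAP libraries, and the 2 dopamine TRAP libraries differed widely, and both lay above both inputs. In dopamine replicate 2 the listing came through TRAP alone. It was listed in no replicate of serotonin, muscle or intestine, and was thus under 1 RPKM in both fractions there. In the authors' deposited table for dopaminergic neurons, C06C3.3 is 8th of 564 genes with an average enrichment of 34.5.

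Y44A6D.2 (tpan-1) was a strong neuronal transcript, at 4178 and 2604 RPKM in neuronal TRAP, against 40.04 and 13.01 RPKM in neuronal input. In dopamine it had 103.5 and 33.4 RPKM in the TRAP libraries, against 171 and 90.6 RPKM in input, which overlap. Serotonin values overlapped too, with 180 and 167 RPKM in the TRAP libraries against 229 and 167 RPKM in input. Muscle had 22.7 and 84.8 RPKM in the TRAP libraries against 10.51 and 45.8 RPKM in input, which overlap. Intestine had 51.1 and 33.9 RPKM in the TRAP libraries against 66.5 and 115 RPKM in input, which do not.

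C07A12.2 (nssp-77) followed H05L03.3 at a lower level. It had 752 and 205 RPKM in neuronal TRAP, against 6.66 and 0.786 RPKM in neuronal input, on 6 and 5 input reads. The ratios were 113, with a counting interval of 51.9 to 308, and 261, with an interval of 111 to 803. In dopamine it had 3.77 and 3.35 RPKM in the TRAP libraries, against 8.91 and 8.68 RPKM in input. In serotonin it had 3.09 and 4.599 RPKM in the TRAP libraries, against 18.4 and 11.1 RPKM in input. The intestine values were 5.78 and 1.803 RPKM in the TRAP libraries, against 11.1 and 14.4 RPKM in input. TRAP lay below both inputs in these 3 purifications. In muscle TRAP had 1.32 and 7.30 RPKM and input had 1.32 and 3.62 RPKM, and replicate 1 rested on 12 TRAP reads and 8 input reads.

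C39B10.5 combined a reproducible neuronal level, 172 and 163 RPKM in the TRAP libraries against 0.709 and 0.502 RPKM in input, with next to nothing in the other TRAP libraries. The neuronal inputs held 1 read and 5 reads, and the ratios were 243, with a counting interval of 43.5 to 9581, and 324, with an interval of 139 to 1000.1. In dopamine it had 0.392 and 0 RPKM in the TRAP libraries, against 6.05 and 2.02 RPKM in input. With 0 reads in dopamine TRAP replicate 2 and a floor of 3 reads, TRAP there was at least 34.6-fold lower. In serotonin it had 1.64 and 0.649 RPKM in the TRAP libraries, against 2.74 and 2.85 RPKM in input. In intestine it had 1.05 and 0.0904 RPKM in the TRAP libraries, against 1.67 and 2.47 RPKM in input. In muscle, replicate 2 alone listed it, at 0.474 RPKM in the TRAP library against 1.24 RPKM in input. In dopamine, serotonin and intestine both TRAP libraries lay below both inputs. The listing came through input alone in both dopamine replicates and in replicate 2 of serotonin, intestine and muscle. That fixes TRAP as the lower fraction in these replicates.

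The 7 genes differed in how steep the neuronal change was on the log2(RPKM + 1) scale. Y44A6D.2 stood 3rd, H05L03.3 4th, C07A12.2 7th and C39B10.5 8th from the top among the 13435 genes compared, with changes of 7.10, 6.95, 6.73 and 6.72. T03G11.3 stood 278th, C06C3.3 375th and F45E4.3 550th, with changes of 5.24, 4.99 and 4.57. The added 1 RPKM holds down the change of genes near 0 in input. By the authors' deposited ratio the order turned round: in their deposited table of 2370 neuronal genes F45E4.3 is 1st at 605, C06C3.3 2nd at 420 and T03G11.3 3rd at 313. In that authors' table C39B10.5 has 105, Y44A6D.2 85.2, C07A12.2 84.3 and H05L03.3 78.0. The leading places rest on neuronal replicate 2, where all 3 genes had 0 input reads: the authors' deposited ratio of F45E4.3 is 72.0 in replicate 1 and 1138 in replicate 2. Of the 50 largest neuronal changes, 20 belonged to genes listed by a sequence name, and 9 of these carry another symbol in RefSeq.

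Across purifications, the TRAP levels of Y44A6D.2, H05L03.3, C07A12.2 and C39B10.5 were highest in neuronal TRAP, with no overlap with the next. Below that, Y44A6D.2 came next in serotonin, and its dopamine, muscle and intestine ranges overlapped. For H05L03.3 the dopamine, serotonin and intestine ranges overlapped, and that of muscle overlapped only that of dopamine. For C07A12.2 all 4 lower ranges overlapped, and for C39B10.5 serotonin lay above dopamine while intestine overlapped both. F45E4.3 and T03G11.3 came highest in neuronal TRAP, then in dopamine and serotonin TRAP, whose ranges overlapped. For C06C3.3 the neuronal and dopamine TRAP ranges overlapped. Each table was normalized on its own, so this order is a description.

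In whole-animal input of the 4 other strains, H05L03.3 had from 9.30 to 396 RPKM with a median of 114 RPKM, and Y44A6D.2 from 10.51 to 229 RPKM with a median of 103 RPKM. C07A12.2 ranged from 1.32 to 18.4 RPKM with a median of 9.997 RPKM. For all 3, muscle-strain input replicate 1 was the lowest of the 8 inputs. C39B10.5 had 1.24 to 6.05 RPKM in the 7 inputs that list it. F45E4.3 and T03G11.3 were listed in 5 of the 8 inputs, at no more than 1.77 and 1.37 RPKM, and C06C3.3 in 2, at no more than 1.06 RPKM.

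The question put to the dopamine and serotonin purifications, which had no part in choosing the genes, was whether TRAP and input differed there. For C39B10.5 in dopamine and F45E4.3 in serotonin the listing rule fixed the direction in both replicates, so their values are a description and they are left out of the counts. The shares of all genes keep such genes, so counts and shares are not fully alike. Among the genes kept, C06C3.3 in dopamine and T03G11.3 in both purifications were listed in replicate 2 through TRAP alone. C39B10.5 was listed in serotonin replicate 2 through input alone. A test needs both replicates listed, so these genes entered it through their higher fraction in replicate 2. Counts that hold them are thus partly fixed by the listing. limma without the replicate number called 0 of the other 6 genes in dopamine, where it called 0% of all genes, and 0 of the other 5 in serotonin, where it also called 0%. At an unadjusted p under 0.05, 2 of the 6 passed in dopamine, against 27.9% of all genes, and 3 of the 5 in serotonin, against 27.7%. edgeR on recovered reads called 0 in both, where it also called 0% of all genes. DESeq2 called 3 of the 6 as higher in dopamine, against 8.68% of all genes, and 1 of the 5 in serotonin, against 8.79%. The replicate numbers pair TRAP with input, and with the replicate as a block limma called 3 of the 6 as higher in dopamine, against 8.44% of all genes, and 1 as lower, against 30.5%. In serotonin the blocked fit called 1 of the 5 as higher, against 9.77% of all genes, and 2 as lower, against 29%.

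The genes higher in dopamine TRAP in the blocked fit were C06C3.3, T03G11.3 and F45E4.3. C06C3.3 had a log2 change of 3.22 ± 0.96 (SE of the fit without the block, n = 2 and 2 libraries), with a limma adjusted p of 0.0999 without the block and 1.4e-07 with it. In this blocked fit p rests on the spread pooled over genes and not on the gene's own. The changes of C06C3.3 in replicates 1 and 2 were far apart, at 4.61 and 1.82. The change of C06C3.3 was 4.77 without dopamine TRAP replicate 2 and 1.66 without dopamine TRAP replicate 1. T03G11.3 had a change of 1.70 ± 0.66, with limma adjusted p of 0.15 without and 0.0015 with the block, and changes of 2.59 and 0.81 without those libraries in the same order. F45E4.3 had a change of 1.18 ± 0.61, with limma adjusted p of 0.24 without and 0.028 with the block, and changes of 1.88 and 0.48. For all 3 the change in replicate 1 was the larger. For C06C3.3 and T03G11.3 the listing fixed the direction in replicate 2 but not in replicate 1.

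The gene lower in dopamine TRAP in the blocked fit was H05L03.3. It had a log2 change of -1.35 ± 0.82, with limma adjusted p of 0.30 without and 0.025 with the block. Its change was -0.24 without dopamine TRAP replicate 2 and -2.46 without dopamine TRAP replicate 1. C07A12.2 and Y44A6D.2, at -1.10 ± 0.58 and -1.07 ± 0.67, passed in neither fit. The change of Y44A6D.2 was -0.26 and -1.87 without those libraries in the same order. C39B10.5, whose direction was fixed, had a change of -1.97. The median change of all genes in dopamine was -0.60, so these shifts are smaller relative to it.

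In serotonin the blocked fit called T03G11.3 as higher. T03G11.3 had a log2 change of 1.85 ± 0.50, with limma adjusted p of 0.12 without and 0.0096 with the block, and its direction was fixed by the listing in replicate 2 alone. F45E4.3, whose direction was fixed in both replicates, had a change of 1.90. H05L03.3 and C07A12.2 were called as lower with the block, at -1.91 ± 0.61 and -1.68 ± 0.45, with limma adjusted p of 0.016 and 0.013 with the block and 0.14 and 0.12 without it. C39B10.5 and Y44A6D.2, at -0.86 ± 0.42 and -0.17 ± 0.37, passed in neither. The median change of all genes was -0.44.

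Rescaling every library by relative log expression together with the block, a setting chosen after seeing the data, took this general shift out. In dopamine it kept the same 3 of the 6 genes as higher, against 18.6% of all genes, and called none of the 6 as lower, against 17.3%. H05L03.3 was thus no longer called there. In serotonin it kept T03G11.3 as higher, against 17.7% of all genes, and the same 2 genes as lower, against 20.3%. C06C3.3 in dopamine and T03G11.3 in both had entered through TRAP alone in replicate 2. The counts of genes called higher are therefore partly fixed by the listing.

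**Figure D2:**
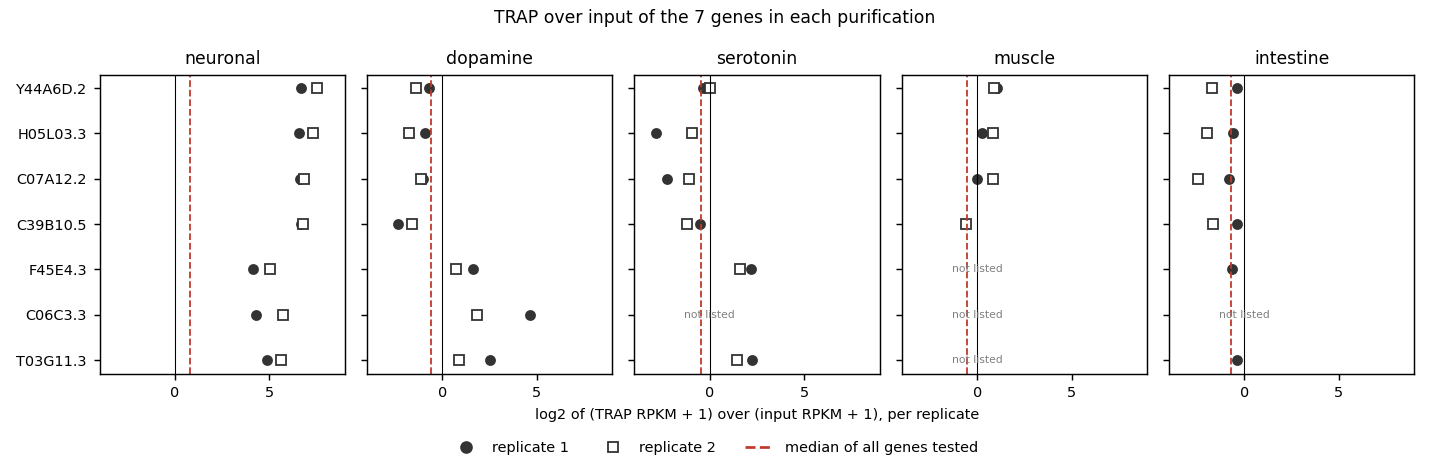
log2 of (TRAP RPKM + 1) over (input RPKM + 1) for each gene and replicate in the 5 purifications, with the median of all genes tested as a dashed line. In dopamine C06C3.3, T03G11.3 and F45E4.3 lie above 0 in both replicates and the other 4 genes below 0. In muscle Y44A6D.2, H05L03.3 and C07A12.2 lie at or above 0.

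Neuron markers beside these results moved as follows, against the shares of all genes called in the same blocked fits. All 6 tested neuropeptide processing genes rose in serotonin TRAP, against 9.77% of all genes, and 5 of 6 in dopamine, against 8.44%. Their median changes were 2.44 and 1.65. H05L03.3 was lower, and so were the levels of the neuropeptide genes pdf-1 and nlp-10, with changes of -1.26 and -1.005 in serotonin and -1.33 and -1.16 in dopamine. Both genes were picked for levels most like those of H05L03.3 over these same libraries, so their shared direction is a description and no separate support. Of the 14 ciliated sensory genes, 11 were tested in serotonin and 5 in dopamine. Of these, 4 and 2 rose, against 9.77% and 8.44% of all genes, with medians of 1.11 and 0.90. The 14 genes summed to 11.6 to 12.6 RPKM in serotonin input and 7.06 to 20.1 RPKM in dopamine input. Genes so low in input enter largely through TRAP, so the listing partly fixed this direction. Of the GABA neuron genes, 3 of 4 fell in serotonin, against 29% of all genes, and 3 of 3 in dopamine, against 30.5%, with medians of -1.33 and -1.50. Of the pan-neuronal genes, 3 of 19 rose and 2 fell in serotonin, against 9.77% and 29% of all genes. In dopamine 1 of 19 rose and 7 fell, against 8.44% and 30.5%. Their medians were 0.09 in serotonin and -0.29 in dopamine.

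The 12 body wall muscle genes summed to between 6022 and 51295 RPKM in dopamine TRAP, against 13688 to 14889 RPKM in input. In serotonin TRAP they summed to 8781 to 12454 RPKM, against 15350 to 18310 RPKM in input, although the myosin genes unc-54 and myo-3 were higher in TRAP there, with log2 changes of 5.27 and 5.97. With the block, 3 of the 12 rose and 2 fell in serotonin, against 9.77% and 29% of all genes. In dopamine 3 rose and 0 fell, against 8.44% and 30.5%. In the muscle purification, the 3 genes higher in dopamine were under 1 RPKM in both fractions. The part of muscle RNA in the dopamine and serotonin results was not tested.

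Whether the dopamine change differed from the serotonin change was asked of the 6 genes listed in both. limma without the block called 0 of 6, against 0% of all genes. At an unadjusted p under 0.05, 0 of 6 passed, against 155 of all 14001 genes. edgeR and DESeq2 also called 0 of 6, against 0 and 35 of all genes. The differences, dopamine minus serotonin on the log2 scale, ran from -1.11 ± 0.70 for C39B10.5 to 0.57 ± 0.65 for C07A12.2. The listing rule fixed the direction of C39B10.5 in dopamine and of F45E4.3 in serotonin, so their differences are a description. Among the others the lowest was -0.89 ± 0.85 for Y44A6D.2. With errors of this size, a p that misses the threshold does not show that the genes act alike. C06C3.3 could not enter this test because serotonin does not list it.

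**Figure D3:**
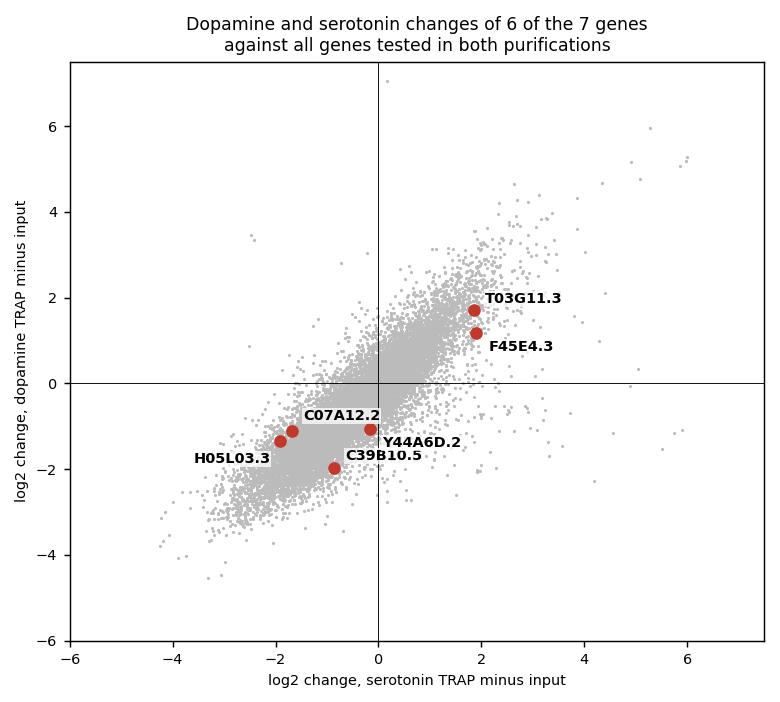
log2 change of TRAP over input in dopamine (vertical) against serotonin (horizontal) for all genes tested in both, in grey, with 6 of the 7 genes in red. T03G11.3 and F45E4.3 lie above 0 on both axes and the other 4 below 0 on both; C06C3.3, which serotonin does not list, is left out.

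In intestine, limma without the block called 0 of the 4 genes tested, against 5.74% of all genes. At an unadjusted p under 0.05, 3 of the 4 passed, against 29.8% of all genes. Among these, C39B10.5 was listed in replicate 2 through input alone, which fixes its lower direction there. edgeR and DESeq2 called 0 of the 4, against 0% and 6.68% of all genes. The blocked fit called 2 of the 4 as lower, against 20.9% of all genes. C07A12.2 had a log2 change of -1.65 ± 0.63, with limma adjusted p of 0.078 without and 0.015 with the block. H05L03.3 had -1.31 ± 0.59, with limma adjusted p of 0.12 without and 0.039 with the block. Y44A6D.2 and C39B10.5 had -1.05 ± 0.59 and -1.03 ± 0.41 and passed in neither. The median change of all genes was -0.74, and rescaling with the block left none of the 4 called.

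In muscle, 3 genes were tested and limma called 0, against 2.05% of all genes, with 0 at an unadjusted p under 0.05, against 11.5%. edgeR and DESeq2 also called 0, against 2.95% and 10.98% of all genes. Of the 3 genes, only Y44A6D.2 had an unadjusted p under 0.05 there, at 0.030 by edgeR and 0.028 by DESeq2. The shares of all genes with such a p were 18.2% and 23.7%. In the limma fit Y44A6D.2 had a log2 change of 0.96 ± 1.01, H05L03.3 of 0.56 ± 1.14 and C07A12.2 of 0.42 ± 0.94. Each of these changes was smaller than its error. The median change of all genes was -0.56, and after rescaling with the block Y44A6D.2 was called as higher, at 1.45 with a limma adjusted p of 0.017, where 12.9% of all genes were called as higher. Neuron genes in the same libraries had medians of -0.06 for the 14 pan-neuronal genes and 0.35 for the 4 neuropeptide processing genes, with 0 called.

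The same 3 genes, the ones listed in all 20 libraries, allowed the mean change of dopamine and serotonin to be set against that of muscle and intestine. limma without the block called 0 of 3, against 4.69% of all genes. At an unadjusted p under 0.05, 0 of 3 passed, against 2346 of all 10014 genes. edgeR and DESeq2 called 0 of 3, against 1401 and 2305 of all genes. The differences were -1.26 ± 0.79 for H05L03.3, -0.78 ± 0.65 for C07A12.2 and -0.57 ± 0.77 for Y44A6D.2. With the block limma called 1 of the 3, H05L03.3, as lower, with an adjusted p of 0.031 against 0.34 without it, while 13% of all genes were called as lower. Without dopamine TRAP replicate 2 the difference of H05L03.3 was -0.70.

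Among themselves the 7 genes varied together to different degrees, as a description over libraries that share strain, depth and the large neuronal TRAP values. Y44A6D.2, H05L03.3 and C07A12.2 had Pearson correlations of 0.92 to 0.94 over 20 libraries on the log2(RPKM + 1) scale. F45E4.3 and T03G11.3 had 0.97 over 14 libraries. H05L03.3 had 0.69 with F45E4.3 and 0.70 with T03G11.3 over the same 14.

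The genes whose levels were most like each of the 7 were found among those with at least 10 RPKM in neuronal TRAP. For H05L03.3 they were pdf-1, a pigment-dispersing factor neuropeptide gene, at r = 0.99, Y119C1B.6 at 0.99 and the neuropeptide gene nlp-10 at 0.99, among 7038 genes over 20 libraries. For C39B10.5 they were ins-14, an insulin-like peptide gene, at 0.99, unc-25, which encodes the enzyme that makes GABA, at 0.98 and F59B8.1 at 0.98, among 7342 genes over 18 libraries. For C07A12.2 they were VM106R.1 at 0.97, the FMRFamide-like peptide gene flp-25 at 0.97 and T26G10.5 at 0.96.

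For T03G11.3 the most alike were dyf-6 at 0.99 and ifta-2 at 0.97, both genes of sensory cilia, and F45E4.3 at 0.97, among 7681 genes over 14 libraries. For F45E4.3 they were unc-80, which encodes a subunit of a neuronal sodium leak channel complex, at 0.97, W03G11.4 at 0.97 and nmtn-1 at 0.97. For Y44A6D.2 they were F09C3.2 at 0.98, drn-1 at 0.98 and the globin gene glb-18 at 0.97. For C06C3.3 only 8 libraries, neuronal and dopamine, could be used, and F47G4.5, cat-2, which encodes the tyrosine hydroxylase of dopamine synthesis, and F59F3.6 led at 0.99. In dopamine cat-2 had 30.5 and 4.57 RPKM in the TRAP libraries, against 0.503 and 0.486 RPKM in input.

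**Figure D4:**
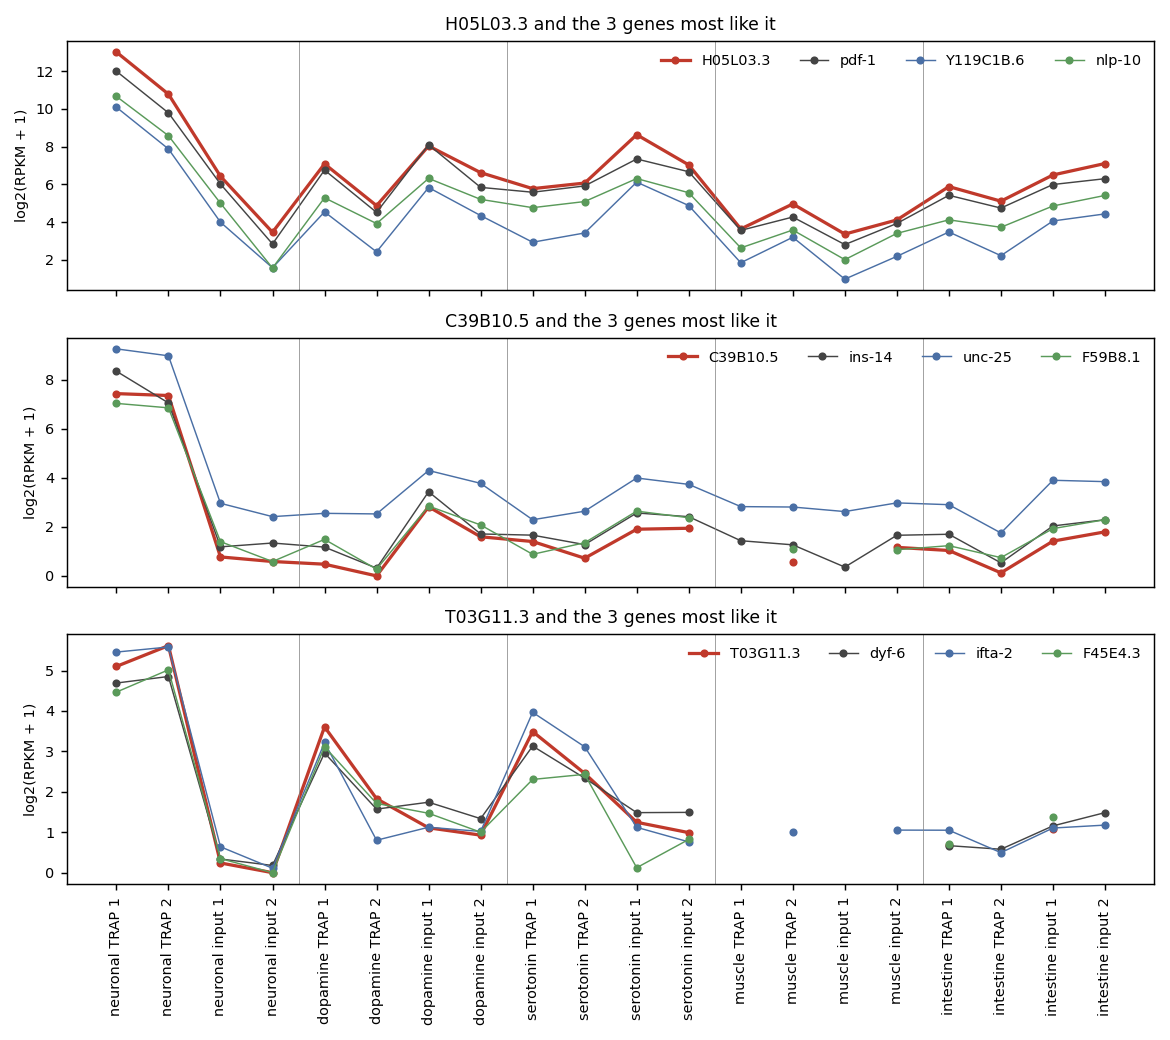
log2(RPKM + 1) of H05L03.3, C39B10.5 and T03G11.3 (red) and of the 3 genes most like each, in all 20 libraries, with gaps where a table does not list the gene. The H05L03.3 lines run in parallel, those of C39B10.5 are low outside neuronal TRAP, and those of T03G11.3 are higher in neuronal and serotonin TRAP than in input, as they are in dopamine replicate 1.

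Of the 7 genes, 4 overlap another protein-coding gene in the RefSeq table: Y44A6D.2 overlaps Y44A6D.1 and Y44A6D.3, C07A12.2 overlaps C07A12.18, F45E4.3 overlaps F45E4.5 and C06C3.3 overlaps mel-11. Whether the counting used strand is not given in the sources used here, so reads of such pairs may have been mixed and these 4 values are uncertain to that extent. C07A12.18 ran like C07A12.2 in the dopamine and serotonin purifications. It had 1.93 and 3.62 RPKM in dopamine TRAP, against 10.46 and 10.6 RPKM in input. In serotonin TRAP it had 0.789 and 2.89 RPKM, against 6.82 and 9.22 RPKM in input. In neuronal TRAP, however, it had 2.49 and 1.34 RPKM, against 3.40 and 0.803 RPKM in input. Y44A6D.3 was higher in muscle TRAP, at 42.9 and 42.2 RPKM against 3.17 and 13.9 RPKM in input, the direction of Y44A6D.2 there, and in neuronal TRAP it had 9.44 and 11.2 RPKM, against 11.04 and 3.76 RPKM in input. mel-11 had 19.2 and 29.9 RPKM in neuronal TRAP, against 16.01 and 1.58 RPKM in input, and 18.6 and 21.7 RPKM in dopamine TRAP, against 24.8 and 13.3 RPKM in input. F45E4.5 had 28.8 and 2.05 RPKM in dopamine TRAP, against 172 and 9.07 RPKM in input. Of the 14 nearest protein-coding neighbours in that table, 12 were matched to the tables by name and 5 are among the authors' 2370 neuronal genes, a list that holds 12.5% of all listed genes.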

How the data were processed

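The 7 genes, the marker lists and the named genes were chosen with earlier results of these data known. STAR and HTSeq are named in the submitters' processing notes; their versions and the genome build are not given in the sources used here. Per the file headers, each replicate has columns of counts, RPKM and the TRAP over input ratio. In the deposited counts, 1 library per replicate holds whole reads plus 1, and its partner holds them multiplied by a constant (a scaled signal). This was inferred from the values and undone to recover reads. RPKM as deposited was proportional to those reads. The authors' deposited ratio is that of the scaled columns; it differs from the RPKM ratio, most in neuronal replicate 2, where the RPKM ratio is 3.61 times as large. The deposited score of the enriched-gene tables is an average ratio, as the authors give it.

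The planned count test was replaced by limma with a mean-variance trend (version 3.58.1 in R 4.3.3), fitted to log2(RPKM + 1), because the deposited values are RPKM and scaled counts. Tested genes were those that both replicate tables list and whose mean is at least 1 RPKM, with Benjamini-Hochberg adjustment over all genes at 0.05. Genes low in input enter through TRAP, so the listing partly fixes their direction. Per the file headers TRAP and input share a replicate, and their deviations correlated at 0.451 to 0.679 in the 5 purifications, so the replicate number pairs them. The blocked fit leaves 1 residual degree of freedom per gene; its prior degrees of freedom were infinite in all purifications but serotonin (6.81), so there p rests on the spread pooled over genes. Alternatives were another scaling, pseudocounts of 0.1 and 5, no minimum and a minimum of 5 on mean RPKM, the block, edgeR 4.0.16 and DESeq2 1.42.0 on recovered reads, and leaving out each library. The fit was tested on simulated data. Likeness was Pearson's r; the 3 highest genes per gene are named. Markers named besides follow a fixed list. Counting intervals are exact (Clopper-Pearson, 95%), with floors of 3 reads. No sequence is shown.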

Additional observations from a re-analysis of the deposited data

Results flagged for a closer look

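For 3 genes the change had opposite signs in both replicates of muscle and of another purification, and none of these differences was tested. The neuronal purification, which chose the genes, was left out. For Y44A6D.2 the muscle change exceeded the intestine change by 2.01, the serotonin change by 1.13 and the dopamine change by 2.02 on the log2 scale. Its serotonin change in replicate 2 was -0.0035, hardly below 0. For H05L03.3 the muscle change exceeded the intestine, serotonin and dopamine changes by 1.87, 2.47 and 1.91. For C07A12.2 the differences were 2.07, 2.10 and 1.53, with a muscle change in replicate 1 of 0.002, hardly above 0.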

How the results depend on the processing

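The counts here include C39B10.5 in dopamine and F45E4.3 in serotonin, whose direction the listing fixed. In the limma fit of all libraries without the block they were 0 everywhere. With the replicate block they were 3 higher (8.44% of all genes) and 2 lower (30.5%) in dopamine. In serotonin the block gave 2 higher (9.77%) and 2 lower (29%), and in intestine 2 lower (20.9%). The contrast of dopamine and serotonin with muscle and intestine had 1 lower (13%). Rescaling with the block gave 3 higher (18.6% of all genes) and 1 lower (17.3%) in dopamine. In serotonin this setting gave 2 higher (17.7%) and 2 lower (20.3%), and in muscle 1 higher (12.9%). It gave 1 lower in the contrast, where 3728 of all 10014 genes were called in either direction. DESeq2 on recovered reads gave 3 higher in dopamine (8.68% of all genes) and 2 higher in serotonin (8.79%). The cause was not tested. Leaving out single libraries gave 0 to 1 gene higher and 0 to 1 lower in dopamine and 0 elsewhere: C06C3.3 higher without dopamine TRAP replicate 2, H05L03.3 lower without dopamine TRAP replicate 1 and C39B10.5 lower without dopamine input replicate 2. With 1 library left in an arm, the spread is taken from the other arm and from other genes. The other alternatives (pseudocounts, minima, scaling alone, edgeR) gave 0 called genes in every comparison.

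Directions turned for values near 0. The serotonin change of Y44A6D.2, -0.17, was 0.22 after rescaling with and without the block, 0.22 by edgeR and 0.22 by DESeq2, and ran from -0.40 to 0.053 with single libraries left out. The dopamine minus serotonin difference of T03G11.3, -0.16, was 0.23 by edgeR and 0.25 by DESeq2 and ran from -1.04 to 0.73 with single libraries left out; that of H05L03.3 ran from -0.55 to 1.67. The muscle changes ran from -0.054 to 1.97 for Y44A6D.2, from -0.10 to 1.22 for H05L03.3 and from -0.50 to 1.34 for C07A12.2. Neuronal input depth, 4.46 M reads in replicate 1, limits every neuronal ratio. By Spearman's rho in place of Pearson's r, 1 of the 3 most alike genes stayed the same for Y44A6D.2 (drn-1), H05L03.3 (Y119C1B.6), C39B10.5 (ins-14) and T03G11.3 (dyf-6), and 0 for the other 3.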
